A study of Homo sapiens with 4 samples.

Results

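The annexin gene family was examined in NCI-H1048, an established cell line from a human small cell lung cancer of the tuft cell-like kind, after guide RNAs (gRNAs) had been directed at COLCA2 or POU2F3. The members were the 10 genes ANXA1, ANXA2, ANXA3, ANXA4, ANXA5, ANXA6, ANXA7, ANXA8, ANXA8L1 and ANXA11, chosen by symbol out of 35979 symbols in the tables. ANXA8L1 had been noted beforehand for its higher count in these same libraries, so comparisons with the non-targeting library are given as a description, without a test. Each of the 10 symbols had 1 row, and all 10 passed the expression minimum, a mean normalized count of at least 20 over the libraries. A normalized count is the number of reads of a gene divided by 1 factor per library.

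Poly(A) RNA of NCI-H1048 was sequenced in 4 libraries that fall into 3 groups. The COLCA2 group, labelled as COLCA2 knockout, held 2 libraries, each with a different COLCA2 gRNA. The POU2F3 group, labelled as POU2F3 knockout, held 1 library with POU2F3 gRNA, and the control, labelled WT, held 1 library with non-targeting gRNA. The last is called the control below, and the others are named by their guide. The labels give no other treatment, and whether the cells were pools or clones is not given in the sources used here. Nothing in the labels says that the COLCA2 libraries came from separate cultures beyond their different gRNAs, so the SD between them may hold guide, culture and technical differences together.

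Annexins are proteins that bind acidic phospholipids in membranes when calcium is present, through a core of repeated domains that members share, while the N-terminal tails differ. They are known for organising membrane patches, for vesicle traffic and for sealing damaged plasma membrane, and several pair with small S100 proteins. ANXA1 is known as an anti-inflammatory protein that limits phospholipase A2 activity and acts through formyl peptide receptors, and ANXA2 with S100A10 (p11) binds plasminogen and its activator at the cell surface.

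ANXA8 and ANXA8L1 are near-identical copies on chromosome 10, and their sequences set how far their counts can be told apart. In GENCODE release 29 (GRCh38), ANXA8 (ENSG00000265190) lies on the minus strand at 47460162 to 47484158 and ANXA8L1 (ENSG00000264230) on the plus strand at 46375627 to 46391784. Their coding sequences, both of 981 bases, were 99.5% identical, with 5 differing bases and no gap. Counted from the first base of the start codon, ANXA8 first, the differences were T16G, C276T, A528G, G530C and T939C. The windows around the first and the last of them are shown because within the coding sequence a read can be told apart only where it covers such a base, and the differing base is in capitals. The first lies in exon 1 of both genes and the last in exon 12.
ANXA8 coding bases 1 to 31: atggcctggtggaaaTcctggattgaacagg
ANXA8L1 coding bases 1 to 31: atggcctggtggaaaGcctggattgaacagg
ANXA8 coding bases 924 to 954: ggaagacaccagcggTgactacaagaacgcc
ANXA8L1 coding bases 924 to 954: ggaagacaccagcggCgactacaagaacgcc
Over all protein-coding transcripts, 86.0% of the distinct 31-base words of ANXA8L1 also occurred in ANXA8, and 47.9% of those of ANXA8 occurred in ANXA8L1. No other pair of the 10 members shared a 31-base word. The next closest coding pair was ANXA4 and ANXA5, at 61.0% identity.

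The 250 bases before the start site of ANXA2, ANXA1 and ANXA8L1 are shown because these are the most abundant member on the higher side, the most abundant on the lower side and the member with the largest ratio. They come from RefSeq (GRCh38.p14) and read 5′ to 3′ on the strand of the gene. Their start sites differ from the GENCODE gene limits given here. The ANXA2 window lies inside the GENCODE gene, and those of ANXA1 and ANXA8L1 reach into theirs. Capitals mark matches, on either strand, to any of 5 short motifs. The octamer that POU factors bind is ATGCAAAT. The AP-1 site is TGACTCA, which the factor family of the same name binds. The GC box, bound by factors such as SP1, is GGGCGG. The TATA box was searched as TATAAA. The site of the TEAD factors was searched as GGAATG.
ANXA2, minus strand, chr15:60397987-60398236: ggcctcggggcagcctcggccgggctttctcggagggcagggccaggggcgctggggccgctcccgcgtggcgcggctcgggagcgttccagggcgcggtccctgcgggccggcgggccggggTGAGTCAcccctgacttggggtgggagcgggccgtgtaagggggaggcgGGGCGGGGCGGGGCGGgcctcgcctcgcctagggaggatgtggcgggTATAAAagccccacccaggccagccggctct
ANXA1, plus strand, chr9:73151615-73151864: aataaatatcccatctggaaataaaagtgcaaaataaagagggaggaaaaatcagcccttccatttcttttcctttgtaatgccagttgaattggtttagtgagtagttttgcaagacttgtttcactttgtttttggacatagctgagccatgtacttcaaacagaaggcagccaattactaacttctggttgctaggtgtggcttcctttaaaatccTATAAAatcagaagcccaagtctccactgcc
ANXA8L1, plus strand, chr10:46375526-46375775: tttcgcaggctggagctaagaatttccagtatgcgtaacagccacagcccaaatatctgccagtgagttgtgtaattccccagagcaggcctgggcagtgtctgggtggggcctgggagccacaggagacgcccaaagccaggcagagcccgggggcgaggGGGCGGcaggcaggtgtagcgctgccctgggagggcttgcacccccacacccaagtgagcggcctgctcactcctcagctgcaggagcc
The windows of ANXA2 and ANXA1 both held TATAAA 31 bases before the start. The ANXA2 window also held the AP-1 letters 127 bases before the start, as TGAGTCA, and 3 GC boxes that share bases with each other. GC content was 78% for ANXA2, 38.4% for ANXA1 and 64.0% for ANXA8L1, against a median of 58% over 35116 windows of the same length. The table held 13 windows for 9 members, and ANXA8 had none. The octamer letters were in 0 of the 13 annexin windows and in 1.63% of all windows, and the TEAD letters in 0 of 13 and in 11.9%. The AP-1 letters were in 1 of 13 windows and in 4.20% of all, TATAAA in 3 of 13 and in 10.7%, and the GC box in 8 of 13 and in 42.6%. These matches describe letters and not bound sites.

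The libraries held between 21587741 and 29632382 reads assigned to genes. POU2F3, the targeted factor, had a normalized count of 14602 in the control, 1449 under the POU2F3 guide and 3677 and 2351 under COLCA2 guides 1 and 2, and COLCA2 had 5585, 1393, 3119 and 3541 in that order. Of 12 tuft markers, 9 passed the minimum, and 6 were at least 2-fold lower in all 3 targeted libraries, against 1.5% of all genes. The 6 include POU2F3, itself a targeted gene. ASCL2, DCLK1 and IL17RB passed the minimum and were lower in all 3, but short of that call. The summed tuft level was 43380 in the control and 11356 to 15960 in the targeted ones, while TRPM5 and CHAT stayed at or below 10.5 in every library. SOX9 and POU2F3, at 17848 and 14602 in the control, were the largest parts of that sum. The 4 epithelial markers summed to 12082 in the control and 25820 to 37107 in the others. Of these, 3, KRT8, KRT18 and CDH1, were at least 2-fold higher in all 3, against 4.89% of all genes. The remaining marker, EPCAM, was lower in all 3. It had 3986 in the control, 2945 and 3408 under COLCA2 guides 1 and 2 and 2463 under the POU2F3 guide. The neuroendocrine markers summed to 336 against 198 to 205. Of these 7 markers, 4 passed the minimum, and 1, INSM1, was at least 2-fold lower in all 3, against 1.5% of all genes. INSM1 had 118 in the control and 23.8 to 35.3 in the others. SYP and DLL3 were lower in all 3 by less, and CHGB lay on both sides of the control. Markers of cells that a culture should lack summed to 1129 to 1305 in every library, most of it COL1A1, with CD3E listed at 0. The part of these marker shifts in the annexin values was not tested. In bulk RNA, more cells that express a gene and more RNA per cell cannot be told apart.

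Against the control, 8 of the 10 annexins were higher in all 3 targeted libraries and 2, ANXA1 and ANXA4, were lower in all 3. The 8 include ANXA7, whose log2 ratio under the POU2F3 guide was only 0.0058. That ratio turned negative with scaling to equal library totals and with upper-quartile scaling. Over all 14940 genes past the minimum, 34.4% were higher and 35.3% lower in all 3 libraries at any size of difference. At least 2-fold higher under the POU2F3 guide were 4 members, ANXA2, ANXA6, ANXA8 and ANXA8L1, against 6.73% of all genes, and 1 member, ANXA4, was at least 2-fold lower, against 3.05%. That made 5 members in either direction, with 9.77% of all genes. Under both COLCA2 guides 5 members were at least 2-fold higher, the same 4 and ANXA3, against 5.79% of all genes, and 0 members were at least 2-fold lower, against 2.02%, or 5 in either direction with 7.81% of all genes. The median log2 ratio of the members, on the log2(normalized count + 1) scale, was 0.74 under the POU2F3 guide and 1.02 ± 0.13 under the COLCA2 guides (SD of the guides' medians, n = 2). The medians over all genes were -0.0037 and -0.0086. In edgeR's quasi-likelihood test, which borrows its spread from the COLCA2 pair, 8 members passed under the POU2F3 guide and 9 under the COLCA2 guides, against 12.4% and 18.9% of all genes. Those calls come from the contrast in which ANXA8L1 was noted and support nothing here. These comparisons share 1 control library, which has no replicate. ANXA8L1, at 2.86 in the control, passed the expression minimum only through the targeted libraries. With the near-identical ANXA8 and ANXA8L1 summed, 3 were at least 2-fold higher and 1 lower under the POU2F3 guide. Under both COLCA2 guides 4 were then higher and 0 lower. Of the 14939 genes in that setting, 1004 were higher and 455 lower under the POU2F3 guide, and 864 and 302 under both COLCA2 guides.

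**Figure D1:**
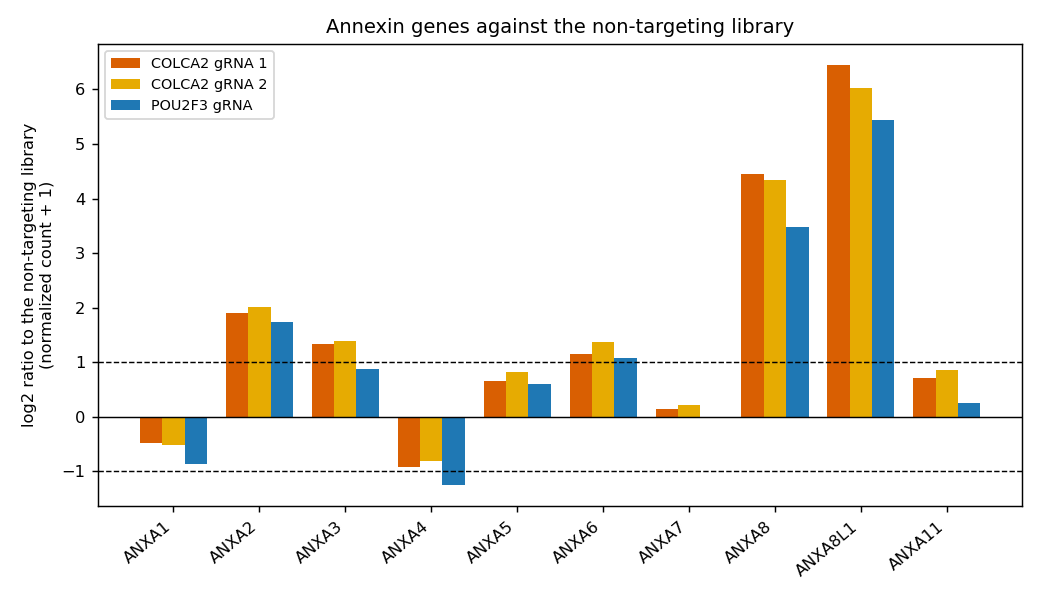
Log2 ratio of each annexin gene (horizontal axis) to the control on the log2(normalized count + 1) scale (vertical axis), 1 bar for each targeted library. Dashed lines mark 2-fold. ANXA8 and ANXA8L1 stand far above the rest in all 3 libraries, ANXA1 and ANXA4 lie below 0, and ANXA7 stays near 0.

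ANXA1, the founding member, occupies 73151757 to 73170393 of chromosome 9 (plus strand, ENSG00000135046). The normalized count was 64178 in the control, 46206 and 44943 under COLCA2 guides 1 and 2 and 35252 under the POU2F3 guide. The control was the highest of the 4 and the POU2F3 gRNA library the lowest. Under the COLCA2 guides the level was 72.0% and 70.0% of the control, a mean log2 ratio of -0.49 ± 0.028 (SD, n = 2). Under the POU2F3 guide it was 54.9%, a log2 ratio of -0.86.

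ANXA2, the partner of S100A10, occupies 60347134 to 60402883 of chromosome 15 (minus strand, ENSG00000182718). The control had a normalized count of 9353, and the targeted libraries had 34822 and 37577 under COLCA2 guides 1 and 2 and 31365 under the POU2F3 guide. All 3 targeted libraries were thus far above the control and close to each other. The fold was 3.72 and 4.02 under the COLCA2 guides, a mean log2 ratio of 1.95 ± 0.078 (SD, n = 2), and 3.35 under the POU2F3 guide, a log2 ratio of 1.75. Under the POU2F3 guide the 95% exact counting interval of the fold ran from 3.28 to 3.43. Counting intervals say nothing of culture or library error, and PCR copies of a molecule are counted as separate reads. They take the recovered whole numbers as read counts, and these may be rounded estimates. The 3 ANXA2 pseudogenes in the tables, ANXA2P1, ANXA2P2 and ANXA2P3, had at most 2 reads in any library, so few reads were assigned to these copies. ANXA2R, which encodes a receptor for ANXA2, had 69 to 133 reads per library. Its normalized count was 65.9 in the control, 120 and 108 under COLCA2 guides 1 and 2 and 112 under the POU2F3 guide.

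ANXA1 and ANXA2 together made up most of the family, and their balance differed between the control and the targeted libraries. Per kilobase of transcript, ANXA1 was 77.4% of the summed family level in the control, and ANXA2 was 11.9%. In the targeted libraries ANXA1 was 47.8% and 45.2% under COLCA2 guides 1 and 2 and 44.1% under the POU2F3 guide. ANXA2 was 37.9%, 39.8% and 41.3% there. The ratio of ANXA1 to ANXA2 per kilobase was 6.53 in the control and 1.07 to 1.26 in the targeted libraries. The summed family took 0.354% of all normalized counts in the control, 0.386% and 0.401% under COLCA2 guides 1 and 2 and 0.328% under the POU2F3 guide, so the total differed far less between libraries than its make-up.

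**Figure D2:**
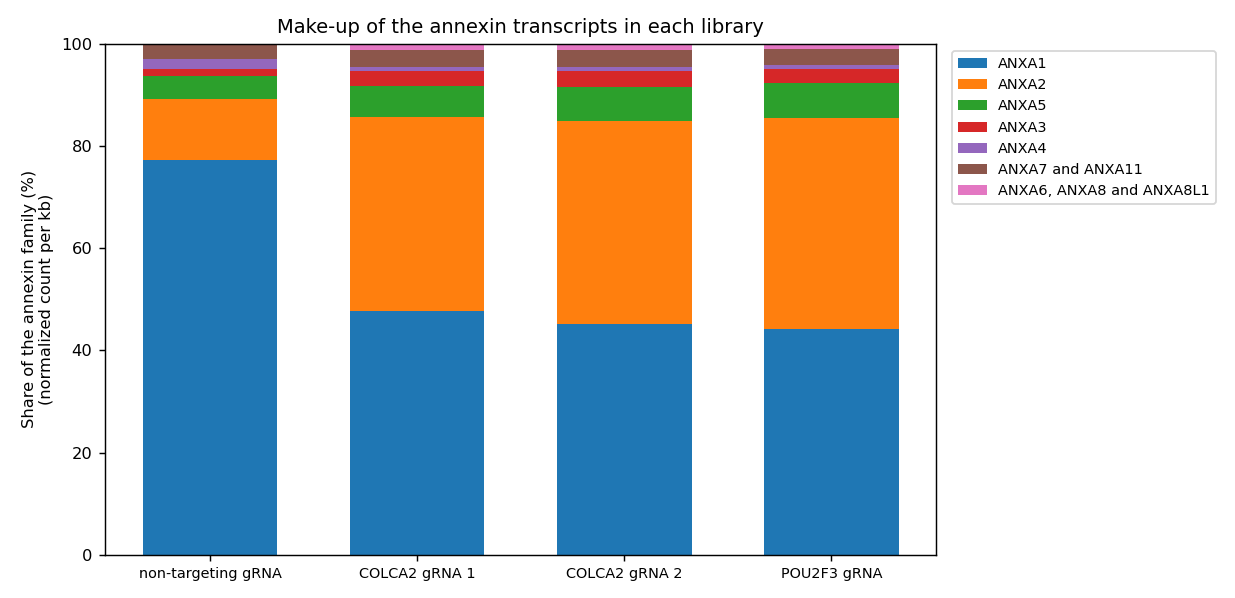
Share of each annexin gene or group of genes (stacked colours, vertical axis, percent of the family's summed normalized count per kilobase) in each library (horizontal axis). ANXA1 fills 77.4% of the non-targeting bar and 44.1% to 47.8% of the others, where ANXA2 takes most of the difference.

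ANXA8 and ANXA8L1 are little studied annexins known from squamous and other stratified epithelia. ANXA8 had 26 reads in the control, 541 and 441 under COLCA2 guides 1 and 2 and 343 under the POU2F3 guide. ANXA8L1 had 3, 324, 213 and 198 reads in the same order. Both copies were thus near the bottom of detection in the control and clearly counted in every targeted library. As normalized counts, ANXA8 had 24.8, 561, 519 and 288, and ANXA8L1 had 2.86, 336, 250 and 166.

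With 3 reads in the control, which may be a rounded estimate of reads shared with ANXA8, the ANXA8L1 fold is known only loosely. It was 58.0 under the POU2F3 guide, with a 95% exact counting interval of 19.6 to 284, and 117 (39.8 to 572) and 87.4 (29.5 to 427) under COLCA2 guides 1 and 2. The share of the pair's reads given to ANXA8L1 was 10.3% in the control (95% exact interval 2.19% to 27.4%) and 32.6% to 37.5% in the targeted libraries. Because reads may be split between the copies in either way, their sum is the firmer value. The sum had 29 reads in the control, 865 and 654 under COLCA2 guides 1 and 2 and 541 under the POU2F3 guide. Its fold was 32.4 (22.4 to 48.6) and 27.8 (19.2 to 41.8) under the COLCA2 guides and 16.4 (11.3 to 24.7) under the POU2F3 guide. The mean log2 ratio of the sum was 4.86 ± 0.16 under the COLCA2 guides (SD, n = 2) and 3.99 under the POU2F3 guide.

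**Figure D3:**
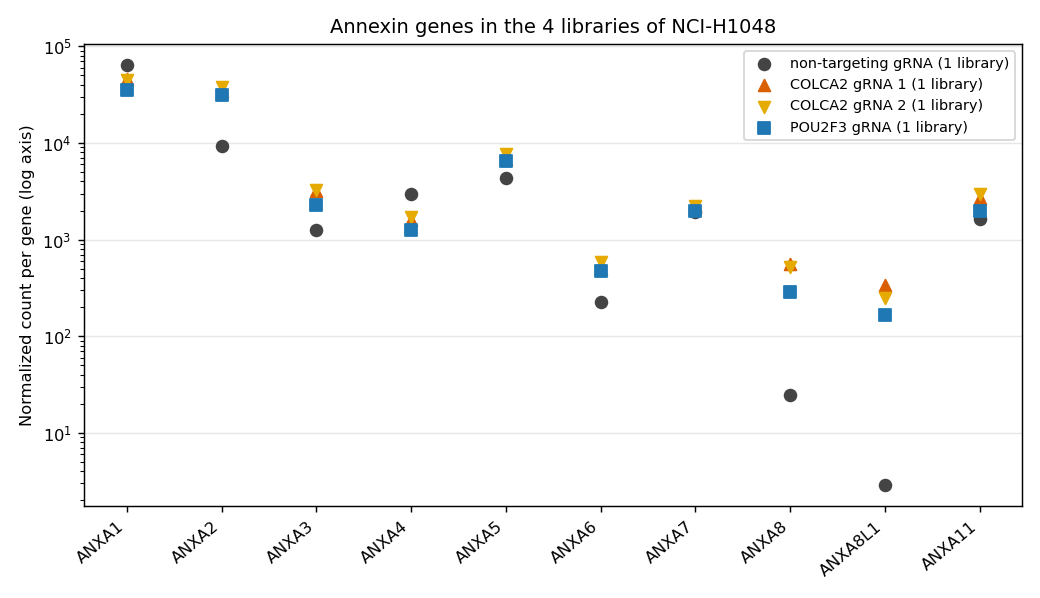
Normalized count of each annexin gene (vertical log axis) in the 4 libraries (one marker each) for the 10 genes on the horizontal axis. The control marker lies above the others for ANXA1 and ANXA4, on top of them for ANXA7 and below them for the remaining 7 genes, furthest for ANXA8 and ANXA8L1.

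ANXA3 and ANXA6 formed a middle group. ANXA3, known from phagocytes and from epithelial cancers, occupies 78551519 to 78610451 of chromosome 4 (plus strand, ENSG00000138772). The normalized count was 1258 in the control, 3158 and 3291 under COLCA2 guides 1 and 2 and 2300 under the POU2F3 guide. The mean log2 ratio was 1.36 ± 0.042 under the COLCA2 guides (SD, n = 2) and 0.87 under the POU2F3 guide, which fell short of 2-fold. ANXA6, the member with a duplicated core and a coding length of 2019 bases, occupies 151100712 to 151157882 of chromosome 5 (minus strand, ENSG00000197043). The normalized count was 225 in the control, 499 and 588 under COLCA2 guides 1 and 2 and 474 under the POU2F3 guide. Every targeted library was at least 2.10-fold above the control for ANXA6, with log2 ratios of 1.14, 1.38 and 1.07. By profile, ANXA3 and ANXA6 were the closest pair of members, with a distance of 0.27 over the 4 libraries.

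ANXA4 and ANXA5 lay on opposite sides of the control. Their coding identity of 61.0% was the highest after the ANXA8 pair, but little above the 58.9% of ANXA3 and ANXA4. ANXA4, an annexin of secretory epithelia, occupies 69644425 to 69827100 of chromosome 2 (plus strand, ENSG00000196975). The normalized count was 2998 in the control, 1585 and 1710 under COLCA2 guides 1 and 2 and 1255 under the POU2F3 guide. The level was 52.9% and 57.0% of the control under the COLCA2 guides, just short of 2-fold, and 41.9% under the POU2F3 guide. AAK1, a gene on the opposite strand, overlaps ANXA4 over 29925 bp and had normalized counts of 1345, 1479, 1812 and 1487 in the same order of libraries. The sources used here do not say if reads were counted by strand. ANXA5, the phosphatidylserine binder used to stain dying cells, occupies 121667955 to 121697113 of chromosome 4 (minus strand, ENSG00000164111). The normalized count was 4307 in the control, 6786 and 7656 under COLCA2 guides 1 and 2 and 6541 under the POU2F3 guide. The mean log2 ratio of ANXA5 was 0.74 ± 0.12 under the COLCA2 guides (SD, n = 2) and 0.60 under the POU2F3 guide.

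ANXA7 and ANXA11 are the members with long N-terminal tails, and ANXA7 lay nearest to the control of all 10. ANXA7 (ENSG00000138279), at 73375101 to 73414076 on the minus strand of chromosome 10, had a normalized count of 1953 in the control, 2161 and 2256 under COLCA2 guides 1 and 2 and 1961 under the POU2F3 guide. The 95% counting interval of its fold under the POU2F3 guide, 0.946 to 1.07, spans 1. The sign of this small ratio turned to -0.028 with scaling to equal library totals and to -0.030 with upper-quartile scaling. ANXA11 (ENSG00000122359), at 80150889 to 80205572 on the same strand and chromosome, had 1652 in the control, 2716 and 2993 under COLCA2 guides 1 and 2 and 1975 under the POU2F3 guide. The mean log2 ratio of ANXA11 was 0.79 ± 0.099 under the COLCA2 guides (SD, n = 2), against 0.26 under the POU2F3 guide.

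The other annexin genes were hardly counted. ANXA9 had 2 to 14 reads per library, ANXA10 had 0 to 3 and ANXA13 had 14 to 19. None of the 3 passed the expression minimum, and no fold is given for them.

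Per kilobase of the shortest principal transcript, the order of levels in the control was led by ANXA1 at 42530, ANXA2 at 6517 and ANXA5 at 2444 normalized counts per kilobase. ANXA4, ANXA7, ANXA3 and ANXA11 followed at 1071, 898, 759 and 652, steps of at most 1.19-fold in a group with 1 library and so with no measured spread. ANXA6 was at 86.9, ANXA8 at 12.7 and ANXA8L1 at 2.58. In the targeted libraries ANXA3 moved up to the place behind ANXA5, and ANXA4 dropped to the place behind ANXA7 and ANXA11. At the lower end, ANXA8L1 stood above ANXA8 and ANXA6 under COLCA2 guide 1 and below both under COLCA2 guide 2, so its place among them was not settled beyond the spread between the guides. ANXA8 was above ANXA6 under both COLCA2 guides and below it under the POU2F3 guide. The place of ANXA11 depended on the transcript, since its longest principal transcript has 6965 bases and its shortest 2534. With the longest transcripts ANXA2 stood above ANXA1 under COLCA2 guide 2 and under the POU2F3 guide, and with the shortest it did not.

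The POU2F3 gRNA library was then set directly against the COLCA2 libraries, which leaves out the control. The comparison still uses the targeted libraries in which ANXA8L1 was noted. For that gene and for the ANXA8 pair it is therefore not free of that choice. All 10 annexins were lower under the POU2F3 guide than under either COLCA2 guide, against 38.9% of all genes. For ANXA5 and ANXA6 the log2 ratios to COLCA2 gRNA 1 were only -0.053 and -0.072. These were smaller in size than the log2 ratios of COLCA2 gRNA 1 to gRNA 2 for the same genes, -0.17 and -0.24. At least 2-fold apart from both COLCA2 libraries were 0 members and 1.37% of all genes, and between the COLCA2 guides 0 members and 2.22%. Relative to the COLCA2 mean, the members had a median log2 ratio of -0.38, and all genes one of -0.0039. Members ranged from -0.14 for ANXA5 to -0.90 for ANXA8. The difference between the guides themselves ranged from -0.24 for ANXA6 to 0.42 for ANXA8L1, with a median of -0.086. The 10 genes are not independent replicates, since they share the same 3 libraries and their scaling.

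Among single members in that comparison, the ANXA8 pair was furthest apart. The fold of its summed reads under the POU2F3 guide was 0.506 (95% counting interval 0.454 to 0.564) over COLCA2 gRNA 1 and 0.590 (0.526 to 0.663) over COLCA2 gRNA 2. ANXA11 had 0.727 and 0.660, ANXA3 had 0.728 and 0.699, and ANXA1 had 0.763 and 0.784 over gRNA 1 and 2. The counting interval lay below 1 for 9 members against COLCA2 gRNA 1, with ANXA6 as the exception, and for all 10 against COLCA2 gRNA 2. In edgeR's quasi-likelihood test over all genes 0 members passed an adjusted p of 0.05, against 0.341% of all genes. At an unadjusted p under 0.05 there were 6 members, ANXA1, ANXA3, ANXA4, ANXA8, ANXA8L1 and ANXA11, against 13.6% of all genes. The smallest adjusted p from edgeR was 0.110, for ANXA8, with a fitted log2 ratio of -0.90. The test has 1 residual degree of freedom, from the pair of guides, so a miss does not show that the libraries were alike. Among the members named by the unadjusted p, ANXA8 and ANXA8L1 are near-identical copies. For them this comparison is not free of the earlier choice of ANXA8L1.

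**Figure D4:**
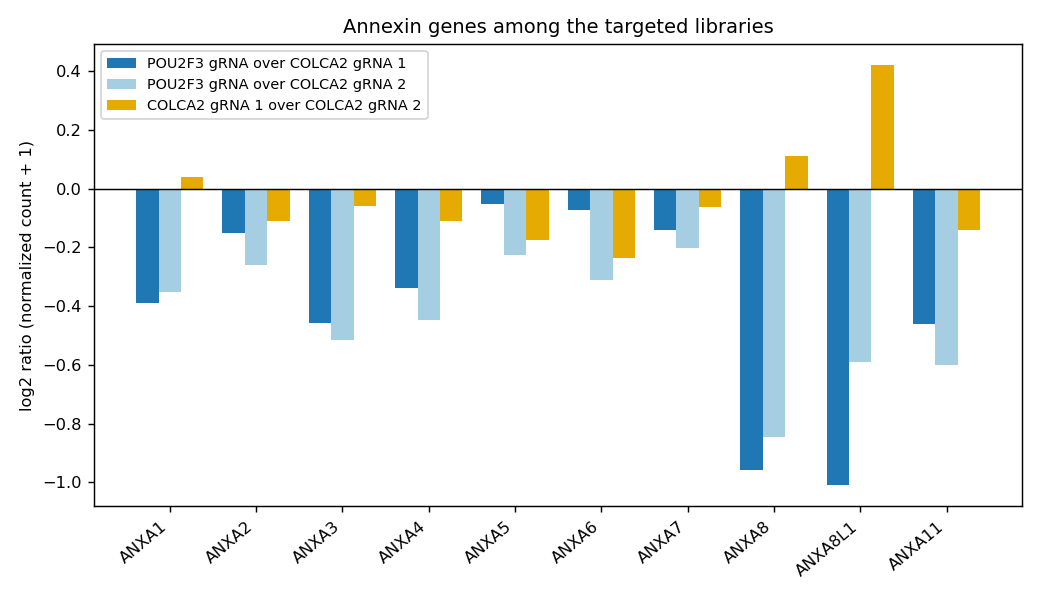
Log2 ratio of each annexin gene between targeted libraries on the log2(normalized count + 1) scale (vertical axis), for POU2F3 gRNA over each COLCA2 gRNA and for one COLCA2 gRNA over the other. Both POU2F3 gRNA bars lie below 0 for all 10 genes, and the bar between the guides lies on either side of 0.

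Genes that work with annexins were taken from lists chosen by function, with results of these data already known. Of 8 annexin-binding S100 genes, 4 passed the minimum, and 3 of these were at least 2-fold higher in all 3 targeted libraries, against 4.89% of all genes. S100A10, the ANXA2 partner, had a normalized count of 71.6 in the control, 612 and 693 under COLCA2 guides 1 and 2 and 374 under the POU2F3 guide. S100A6, which binds ANXA11 among others, had 34.4, 518, 622 and 341, and S100A16 had 13.4, 305, 355 and 73.0. S100A16 passed the minimum only through the targeted libraries. S100A11, the ANXA1 partner, had at most 5 reads in any library. The formyl peptide receptor genes FPR1, FPR2 and FPR3 were each below the minimum, with a summed normalized count of 20.7 to 26.

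In the list for plasmin generation at the cell surface, 10 of 11 genes passed the minimum, and 5 were at least 2-fold higher in all 3 libraries, against 4.89% of all genes. ANXA2 and S100A10 are among these 5 by their place in both lists. PLAU, the urokinase gene, had a normalized count of 342 in the control, 5055 and 5901 under COLCA2 guides 1 and 2 and 3829 under the POU2F3 guide. SERPINB2, which encodes an inhibitor of urokinase, stood at a log2 ratio of 3.83 under the POU2F3 guide, and at a mean of 5.91 ± 0.28 over the pair of COLCA2 guides (SD, n = 2). ENO1, the glycolytic enzyme that also binds plasminogen, had the most reads in the list and log2 ratios of 0.34 to 0.57. SERPINB2, at 8.59 in the control, passed the minimum only through the targeted libraries. PLAUR, the urokinase receptor gene, was lower in all 3 targeted libraries. Its log2 ratios were -0.55 and -0.50 under COLCA2 guides 1 and 2 and -0.57 under the POU2F3 guide.

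All 21 genes for membrane repair and scaffolds passed the minimum. At least 2-fold higher in all 3 libraries were 3 of them, and 0 were lower in that sense, against 4.89% and 1.5% of all genes. AHNAK, a giant scaffold that binds ANXA2 with S100A10, had a normalized count of 877 in the control and 5692, 6126 and 5325 under COLCA2 guide 1, COLCA2 guide 2 and the POU2F3 guide. MYOF, a ferlin of membrane repair, had 183 against 3889, 4511 and 2773, and CAV1, the caveolae protein, had 33.4 against 434, 510 and 264. The list median was 0.28 under the POU2F3 guide and 0.36 under the COLCA2 guides. FLNA, the actin crosslinker with the most reads in this list, had log2 ratios of 0.64 to 0.98.

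The genes of phospholipase A2 and eicosanoid release, the pathway that annexins were first described as limiting, lay on both sides of the control. Of 14 genes, 8 passed the minimum, and 2, PLA2G4A and ALOX5, were at least 2-fold lower and 1, PTGES, higher in all 3 targeted libraries, against 1.5% and 4.89% of all genes. PLA2G4A, the cytosolic phospholipase A2, had a normalized count of 3497 in the control, 1189 and 880 under COLCA2 guides 1 and 2 and 462 under the POU2F3 guide. ALOX5, the lipoxygenase of leukotriene synthesis, had 6311, 1261, 1046 and 506 in that order. Both genes are expressed in tuft cells. ANXA1, PLA2G4A and ALOX5 were all highest in the control and lowest under the POU2F3 guide, and so was ANXA4. Over all genes, 35.3% were lower than the control in all 3 targeted libraries. Lower under the POU2F3 guide than under both COLCA2 guides were 38.9%. The share of all genes that met both was not counted, so how common this order is stays unknown here. A link of ANXA1 to these genes was not tested.

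**Figure D5:**
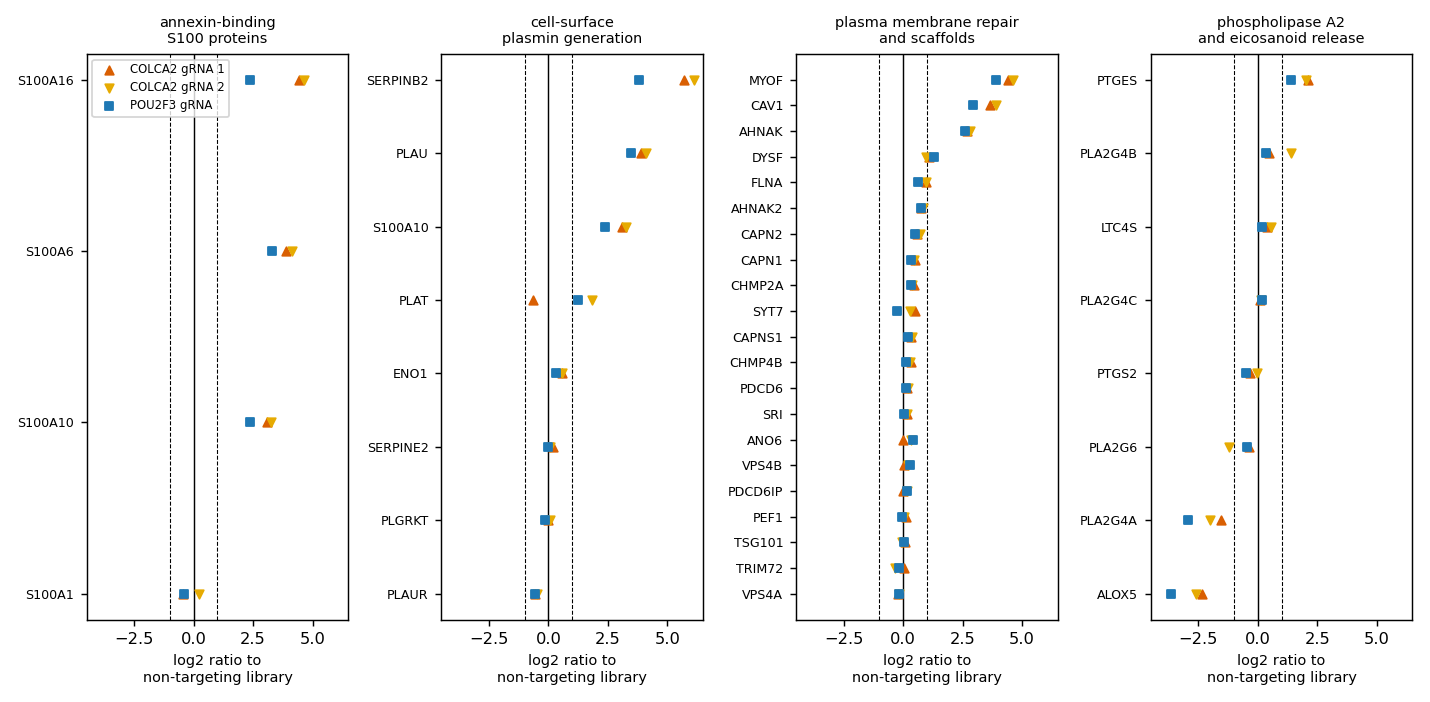
Log2 ratio to the control (horizontal axis) for genes past the expression minimum in 4 lists (panels, one gene per row), with a marker for each targeted library and dashed lines at 2-fold. ANXA2 and 1 gene not reported here are left out. S100A6, S100A10, PLAU, MYOF, CAV1 and AHNAK lie to the right of the 2-fold line, and PLA2G4A and ALOX5 to the left.

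Genes with the most similar profiles were ranked by the distance between log2 values over the 4 libraries, each centred on its own mean, among 12149 other genes with a mean of at least 100. For ANXA1 the nearest were CSTF3 (distance 0.044), PLD6 (0.045), GFOD1 (0.059), DUSP9 (0.064) and HOXA5 (0.068). For the summed ANXA8 pair the nearest included TAGLN (0.25), ANKRD1 (0.30), CCDC80 (0.34) and S100A8 (0.42). TAGLN, which encodes an actin-binding protein, had a normalized count of 108 in the control, 2742 and 2897 under COLCA2 guides 1 and 2 and 1614 under the POU2F3 guide. With 4 libraries, such likeness only describes these samples.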

How the data were processed

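Poly(A) RNA of 4 NCI-H1048 libraries was analysed. The deposited values are a linear signal, normalized counts per gene per the file headers. Salmon, DESeq2 and hg38 are named, without role, per the submitters' processing notes. In each library 100% of the deposited values were whole multiples of 1 step (tolerance 0.001 reads), so reads were recovered by division. Whether these whole numbers are read counts or estimates rounded before division cannot be told from the values, and counting intervals assume read counts. Rows of a symbol were summed, and genes with a mean of at least 20 were kept (14940). Ratios use a pseudocount of 1 and a 2-fold threshold without a test, since 2 groups held 1 library. edgeR 4.0.16 (R 4.3.3, TMM, Benjamini-Hochberg at 0.05) was run on the recovered reads as an alternative and tested on simulated data. Counting intervals are 95% exact binomial. Positions and lengths (shortest APPRIS principal transcript) come from GENCODE 29.

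Named genes are the members, targeted genes, list genes at least 2-fold apart in all 3 targeted libraries with a mean of at least 100 (at most 6 a list), the gene with the most reads in a list, and the 5 nearest profiles. Members and lists were chosen with earlier results of these data known. Genes outside that rule were named after their values were seen: ANXA2R, the ANXA2 pseudogenes, AAK1, S100A11, PLAUR, the FPR genes, the markers and those in the closing section. In the plasmin list, and among the nearest profiles, 1 gene is counted but not reported here.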

Additional observations from a re-analysis of the deposited data

How the results depend on the processing

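No paired analysis was possible because only the COLCA2 group has more than 1 library. Under other scalings, pseudocounts and edgeR's fit, 180 log2 ratios of single annexins were recomputed. Of these 161 moved by no more than the SD between the guides, 17 moved by more and kept their sign (9 closer to 0, 8 farther), and 2 changed sign. Both changes of sign were those of ANXA7 under the POU2F3 guide, at -0.028 with scaling to equal totals and -0.030 with upper-quartile scaling. With ANXA8 and ANXA8L1 summed, the family median was 0.60 under the POU2F3 guide and 0.79 under the COLCA2 guides. Leaving out a COLCA2 guide gave medians of 0.93 to 1.12 over the control and -0.40 to -0.36 for POU2F3 gRNA over COLCA2 gRNA, with 5 members at least 2-fold apart each time. A 1.5-fold threshold gave 8 members under the POU2F3 guide and 8 with both COLCA2 guides, against 19.9% and 15.7% of all genes. A 4-fold threshold gave 2 and 2, against 3.2% and 2.61%. Those 2 were ANXA8 and ANXA8L1, near-identical copies. ANXA8L1 was noted beforehand for its rise, so their count supports nothing here. The 1.5-fold counts include both copies as well. edgeR's test on the recovered reads called 8 members under the POU2F3 guide and 9 under the COLCA2 guides, and 1858 genes for POU2F3, 2831 for COLCA2 and 51 between both targets, and borrows its spread from the guides. With pseudocounts of 0.1 and 10, the ANXA8L1 ratio under the POU2F3 guide was 5.81 and 3.78. Taking the first row of each symbol or another expression minimum changed no member, by construction. Without a minimum, 2551 genes were higher and 1639 lower under the POU2F3 guide, and 1857 and 1028 with both guides, against 1005, 455, 865 and 302. With a minimum of 100 these were 631, 233, 580 and 177. Depth limits ANXA8L1 and ANXA8 most, with 3 and 26 reads in the control.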

Other observations

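A few other genes around the annexins were chosen after their values were seen. PLG, the plasminogen gene, had a normalized count of 29.6 in the control and 37.8 under the POU2F3 guide, but 1.04 and 2.35 under COLCA2 guides 1 and 2, which correspond to 1 and 2 reads. PTGES, a prostaglandin E synthase gene, had 30.6 in the control, 137 and 127 under COLCA2 guides 1 and 2 and 82.3 under the POU2F3 guide. DYSF, the ferlin related to MYOF, was higher under the POU2F3 guide than under either COLCA2 guide, at 188 against 163 and 147, which differs in direction from the 10 annexins in the same comparison. DYSF was not alone in this within the membrane repair list. ANO6, VPS4B and, by little, VPS4A were also higher under the POU2F3 guide than under either COLCA2 guide. The difference in direction was not tested.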
